A study of Mus musculus with 6 samples.

Results

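The genes described here make cholesterol, control how much is made, and move it out of the cell. They were 31 genes chosen by name: 19 enzymes of synthesis, 6 regulators and 6 genes of transport, storage and efflux. Of these, 28 had a probe set on the array that the platform table assigned to that symbol alone, out of 11332 genes tested. Acat2, Nr1h2 and Soat1 had none here and were not analysed. Each gene was read from its probe set with the highest mean log2 signal, and all 28 lay above the filter on dim probe sets, a geometric mean signal of 14.1.

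The cells were HL-1, a mouse line of atrial cardiomyocytes that was derived from a tumour and keeps cardiac features in culture. They were grown to confluence and then kept in 1% oxygen (hypoxia) or 21% oxygen (normoxia) for 8 hours. Each condition has 3 arrays. No other agent or genotype is named in the labels. All samples are of this single line, and nothing says that the 3 of a group were separate cultures, so tests and errors cover only the spread between these samples.

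Cells build cholesterol from acetyl-CoA. The mevalonate steps make isoprenoid units and join them into squalene, and squalene is then oxidised, closed to a sterol ring and trimmed to cholesterol. Several of the late enzymes consume molecular oxygen. Most genes of the pathway are targets of the transcription factor SREBP-2 (Srebf2), which Scap escorts out of the endoplasmic reticulum when sterols are low and which the Insig proteins hold back when sterols are high. Nr1h3 and its relative Nr1h2 encode the liver X receptors, which sense oxysterols and switch on the efflux pumps Abca1 and Abcg1.

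The arrays had like trimmed means (99.5 on all), but their median signals ran from 15 to 19. All 8 atrial and cardiac markers checked were above the filter, and their summed signal was 30579 to 32632 in hypoxia and 31504 to 33276 in normoxia. Of 6 fibroblast, 5 endothelial and 5 macrophage markers, 2, 1 and 3 were above the filter, with sums of at most 152 on any array. The macrophage marker Cd68 was at 39.3 to 49.2 in hypoxia and 16.5 to 25.3 in normoxia, and any part of it in the results was not tested. Of 5 smooth muscle markers 4 were above the filter, with sums of 12177 to 15120 in hypoxia and 11450 to 13338 in normoxia, while the defining Myh11 stayed at or below 10.9. Tagln (3663, 4753 and 4169 in hypoxia against 3493, 2898 and 3331) and Cnn1 (322, 462 and 315 against 253, 249 and 270) were higher on every hypoxia array, whereas Acta2 and Smtn overlapped. Any part of these markers in the results was not tested. No marker was at 0. Bnip3 and Slc2a1, genes of the hypoxia response, rose 7.29-fold and 4.22-fold (limma adjusted p = 0.00138 and 0.00038).

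Among the 18 measured enzymes of synthesis, 16 had a log2 fold change of hypoxia over normoxia below 0 (median -0.39), a count from which only Sc5d turned, to 0.0153, under another scaling (each array centred on its median, which moved the median of all genes by 0.11). The 5 genes of transport, storage and efflux had a median of -0.06, which became 0.0469 under that scaling. Of the 28 genes, 24 had a log2 fold change below 0, against 55.6% of all genes tested, and their median was -0.32 against -0.04 over all genes. Only Hmgcs1 passed at an adjusted p under 0.05 and fell, so 1 of 28 was called lower against 0.0882% of all genes, and 0 of 28 were called higher against 0.662%. For 10 of 28 every hypoxia array lay below every normoxia array, which held for 9.91% of all genes. For 1 of 28, Insig2, every hypoxia array lay above, against 8.16% of all genes. Without adjustment, 9 genes were lower at p under 0.05 (6.30% of all genes) and 1 was higher (6.13%). All 10 of the non-overlapping lower genes were enzymes of synthesis. In bulk RNA, fewer expressing cells and less RNA per cell cannot be told apart.

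**Figure D1:**
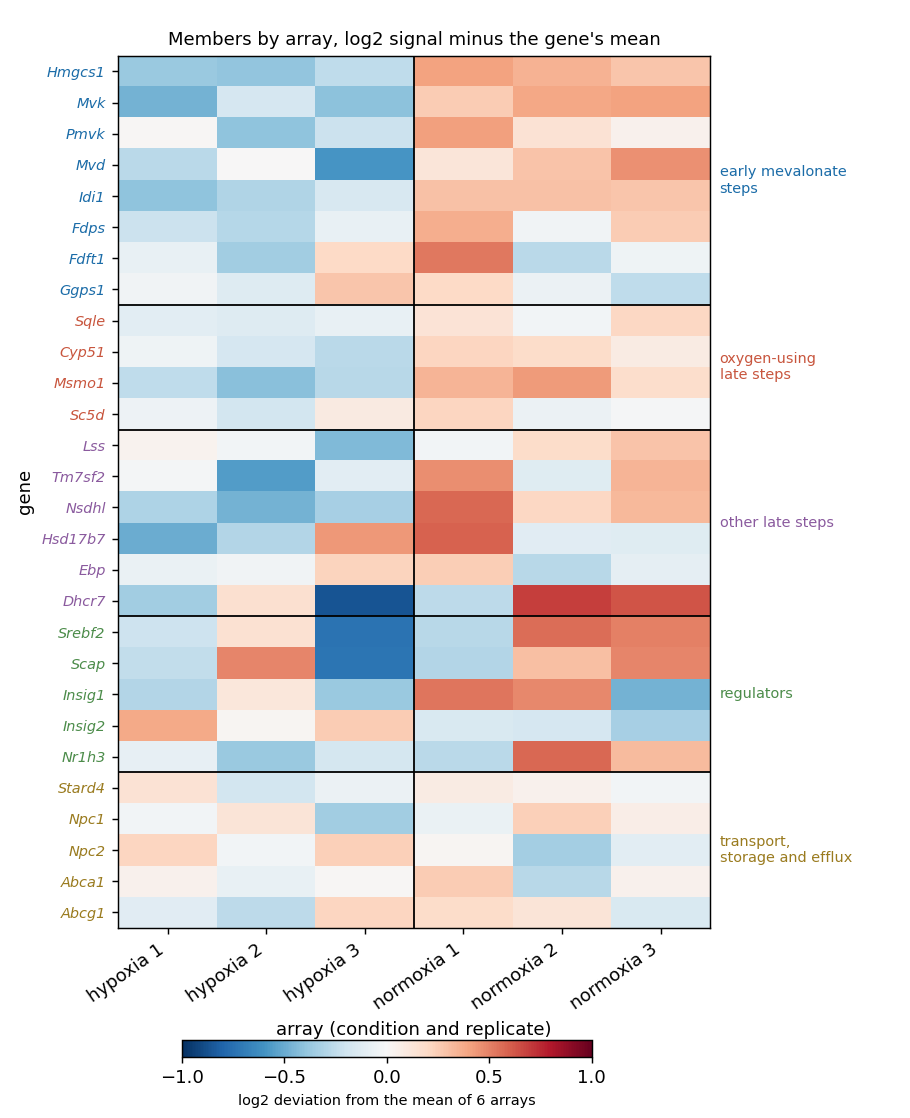
Log2 signal of each of the 28 measured genes (rows, grouped by role) on each of the 6 arrays (columns), as the difference from that gene's mean over the arrays; blue is below the mean and red above. The upper rows, the enzymes of synthesis, are mostly blue on the hypoxia arrays and red on the normoxia arrays, and rows such as Dhcr7, Srebf2 and Scap are lowest on hypoxia 3 and, within normoxia, on normoxia 1.

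In the early mevalonate steps, 7 of 8 measured genes were below 0 (55.6% of all genes), and their median log2 fold change was -0.49. In 6 of the 8 every hypoxia array was lower than every normoxia array (9.91% of all genes). Hmgcs1 encodes the synthase that makes HMG-CoA at the start of the pathway. Its signal was 964, 953 and 1046 on the hypoxia arrays and 1649, 1588 and 1514 on the normoxia arrays. The lowest normoxia array was thus well above the highest hypoxia array, with little spread inside either group (987 ± 50.7 against 1584 ± 67.8, SD, n = 3). Hmgcs1 fell by 37.7% (log2 fold change -0.68, SE 0.11, adjusted p = 0.0209). All 4 of its kept probe sets were called lower, with log2 fold changes from -0.93 to -0.68 and adjusted p from 0.0158 to 0.0413. They read 1 transcript and are not independent. The call did not hold without hypoxia array 1 or 2, with an adjusted p of 0.142 and 0.102, nor without normoxia array 2 or 3, with 0.0844 and 0.109. It was also lost after median centring of each array (0.139), without a variance trend (0.193) and with the replicate number as a block (0.0908). The log2 fold change of Hmgcs1 stayed between -0.76 and -0.57 under all 21 alternatives.

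The next enzymes did not pass, several with log2 fold changes of like size. Mvk, the kinase that first phosphorylates mevalonate, was at 82.4, 102 and 86.0 in hypoxia and 136, 150 and 151 in normoxia. All hypoxia arrays were lower (log2 fold change -0.70, SE 0.17, adjusted p = 0.136), and its other probe set gave -0.84. Pmvk, which adds the next phosphate, was at 157, 117 and 134 against 206, 172 and 159, and the groups only just did not overlap (log2 fold change -0.40, 95% interval -0.80 to 0.00175). Mvd, which decarboxylates the product to isopentenyl diphosphate, was at 262, 315 and 209 against 342, 384 and 433 (log2 fold change -0.57, adjusted p = 0.269). Idi1, the isomerase that makes the partner unit dimethylallyl diphosphate, was at 427, 459 and 507 against 693, 691 and 686. Its normoxia arrays were nearly equal and all above the hypoxia arrays (log2 fold change -0.57, SE 0.12, adjusted p = 0.0924; other probe set -0.56).

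The enzymes that join the isoprenoid units differed more among themselves. Fdps, which makes farnesyl diphosphate, was at 1310, 1247 and 1448 in hypoxia and 1956, 1486 and 1812 in normoxia, without overlap (log2 fold change -0.38, SE 0.13). Fdft1, squalene synthase and the entry to the sterol branch, was at 474, 393 and 573 against 720, 415 and 485. These groups overlapped (log2 fold change -0.15, interval -0.63 to 0.34), but on its other kept probe set all hypoxia arrays (350, 354 and 297) lay below all normoxia arrays (511, 507 and 410; log2 fold change -0.51). Ggps1 makes geranylgeranyl diphosphate for protein prenylation and is off the sterol branch. Its 4 kept probe sets had log2 fold changes from -0.04 to 0.24, the representative at 0.07 (interval -0.33 to 0.48) with the groups overlapping.

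**Figure D2:**
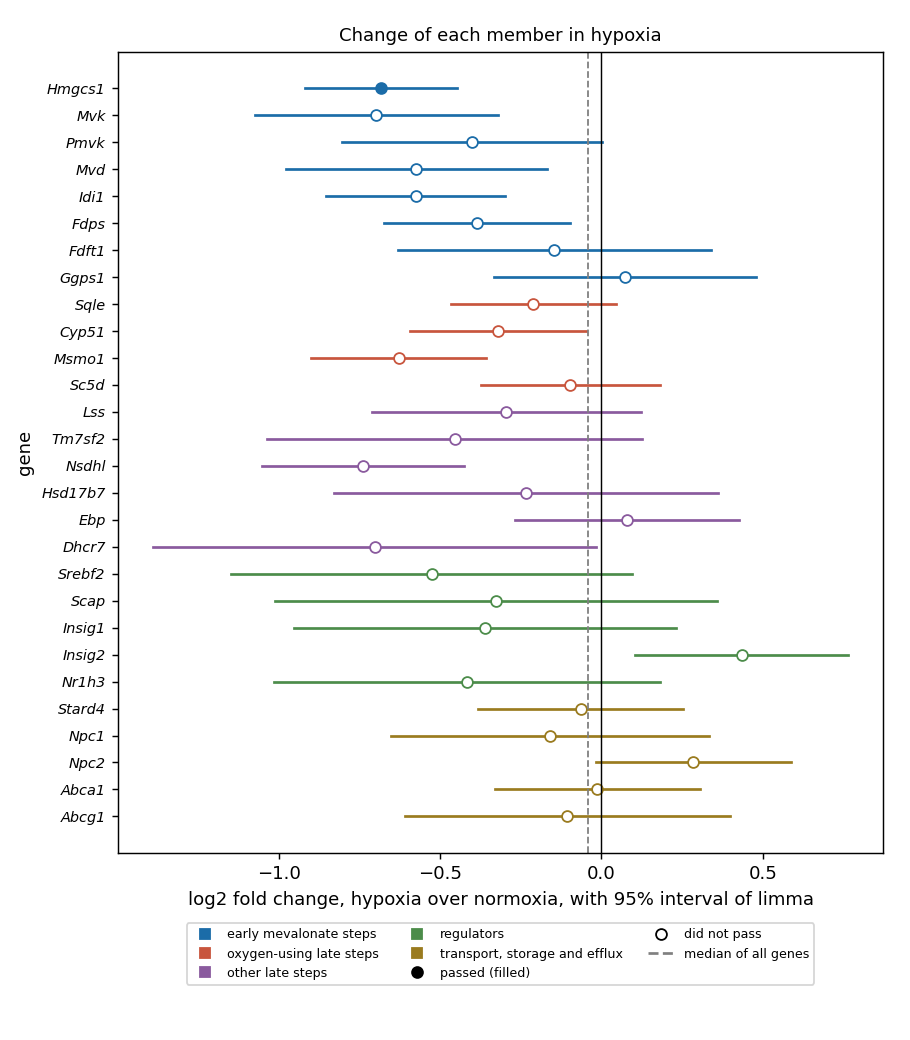
Log2 fold change of hypoxia over normoxia (x axis) for each measured gene (y axis), with the 95% interval of limma; colours mark the roles, the filled point is the gene that passed, and the dashed line is the median of all genes at -0.04. Most enzymes lie left of the dashed line, Insig2 and Npc2 lie to its right, and the widest intervals are those of Dhcr7, Srebf2 and Scap.

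The late enzymes that use oxygen were all 4 below 0 (55.6% of all genes), with a median of -0.27, except that Sc5d turned under median centring as given above. In 3 of the 4 every hypoxia array was lower (9.91% of all genes), and 0 passed. Sqle, squalene epoxidase, takes up the first oxygen of the sterol branch. It was at 863, 850 and 882 in hypoxia and 1020, 915 and 1075 in normoxia, a small shift with no overlap (log2 fold change -0.21, interval -0.47 to 0.04). Cyp51, the lanosterol demethylase, was at 653, 598 and 559 against 782, 764 and 710, again with all hypoxia arrays lower (log2 fold change -0.32, SE 0.12, adjusted p = 0.379). Msmo1, the sterol methyl oxidase that follows it, had the largest shift of the 4. Its signal was 747, 669 and 736 in hypoxia and 1129, 1199 and 1004 in normoxia, so the groups were far apart (log2 fold change -0.63, SE 0.12, adjusted p = 0.0603). Msmo1 was called under 5 of 21 alternatives, with adjusted p over all alternatives from 0.00528 to 0.259. Sc5d, the sterol desaturase near the end, was at 1203, 1098 and 1323 against 1447, 1195 and 1233, and these overlapped (log2 fold change -0.10, interval -0.37 to 0.18).

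Among the 6 late enzymes that use no oxygen, 5 were below 0 (55.6% of all genes), their median was -0.37, and 0 passed. In 1 of the 6 every hypoxia array was lower (9.91% of all genes). That gene was Nsdhl, a dehydrogenase acting with Msmo1 in removing the methyl groups at sterol carbon C-4. It was at 442, 393 and 435 in hypoxia and 815, 630 and 683 in normoxia, the lowest normoxia array well above every hypoxia array (log2 fold change -0.74, SE 0.14, adjusted p = 0.0588). Nsdhl was called under 7 of 21 alternatives, with adjusted p from 0.00268 to 0.253. Hsd17b7, the reductase of the same complex, was at 292, 335 and 557 against 618, 380 and 378. Here hypoxia 3 and normoxia 1 stood above the other arrays of their groups, and the groups overlapped (log2 fold change -0.23, interval -0.83 to 0.36). Its other 2 kept probe sets did not overlap and gave -0.75 and -0.47.

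Lss, which closes the sterol ring, was at 148, 141 and 106 in hypoxia and 142, 164 and 176 in normoxia (log2 fold change -0.29). Tm7sf2, a sterol reductase, was dim at 43.8, 30.1 and 41.2 against 61.1, 40.8 and 56.1 (log2 fold change -0.45, interval -1.04 to 0.13). Dhcr7, the reductase that yields cholesterol, was at 168, 239 and 118 against 178, 345 and 331. Only normoxia 1 fell inside the hypoxia range, and the estimate was wide (log2 fold change -0.70, SE 0.31, adjusted p = 0.447). Ebp, the sterol isomerase, was at 922, 941 and 1128 against 1144, 797 and 909, with no common direction (log2 fold change 0.08, interval -0.27 to 0.43). The 3 groups of enzymes were not tested against each other, and their ranges of fold change overlapped widely.

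**Figure D3:**
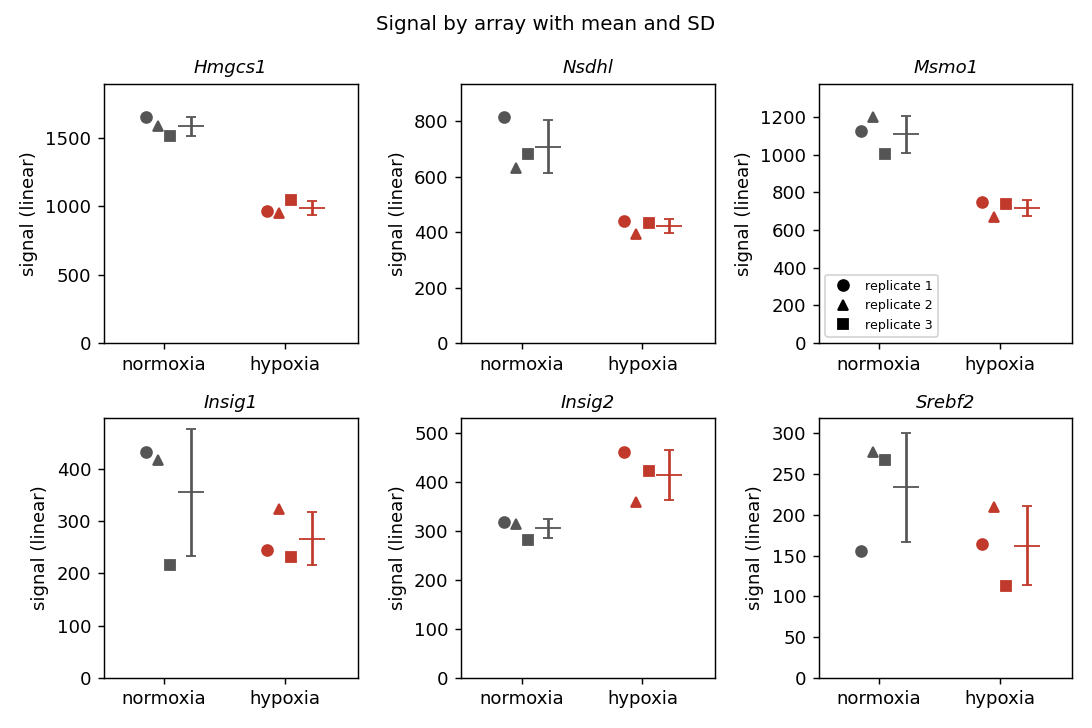
Signal on a linear scale (y axis, from 0) of 6 genes in normoxia (grey) and hypoxia (red); symbols are the replicates, and the bar beside them is the mean with the SD of 3 arrays. Hmgcs1, Nsdhl and Msmo1 are lower on all hypoxia arrays and Insig2 higher on all of them, while the groups overlap for Insig1 and Srebf2.

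The promoters of Hmgcs1, which passed, and of the 3 enzymes with the next smallest adjusted p and an entry here (Nsdhl, Msmo1 and Idi1, chosen after their values were seen) are shown to let the control regions of genes with like shifts be compared. Each is the 250 bases before the gene start in RefSeq's annotation of GRCm38.p6, written 5′ to 3′ on the gene's strand. Capitals mark the sterol element letters TCACNCCAC, a form of the site that SREBP proteins bind, and the CCAAT box, the site of the factor NF-Y, on either strand. Hmgcs1 lies at chr13:119690101-119690350 (+), Nsdhl at chrX:72918271-72918520 (+), Msmo1 at chr8:64733579-64733828 (-) and Idi1 at chr13:8885356-8885605 (+).
Hmgcs1: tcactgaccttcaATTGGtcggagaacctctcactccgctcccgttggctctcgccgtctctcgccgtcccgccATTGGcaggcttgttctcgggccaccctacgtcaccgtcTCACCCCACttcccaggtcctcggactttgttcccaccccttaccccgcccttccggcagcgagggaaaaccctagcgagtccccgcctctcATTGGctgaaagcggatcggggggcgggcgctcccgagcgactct
Nsdhl: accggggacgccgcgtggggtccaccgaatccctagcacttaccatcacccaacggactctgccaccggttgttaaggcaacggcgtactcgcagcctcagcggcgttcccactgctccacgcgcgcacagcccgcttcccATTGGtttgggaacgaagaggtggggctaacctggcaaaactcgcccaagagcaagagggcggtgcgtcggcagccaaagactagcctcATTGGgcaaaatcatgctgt
Msmo1: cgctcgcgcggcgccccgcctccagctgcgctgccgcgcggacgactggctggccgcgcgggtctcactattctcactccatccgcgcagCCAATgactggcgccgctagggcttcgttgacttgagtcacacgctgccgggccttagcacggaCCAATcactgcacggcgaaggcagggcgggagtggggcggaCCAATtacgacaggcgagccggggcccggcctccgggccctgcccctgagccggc
Idi1: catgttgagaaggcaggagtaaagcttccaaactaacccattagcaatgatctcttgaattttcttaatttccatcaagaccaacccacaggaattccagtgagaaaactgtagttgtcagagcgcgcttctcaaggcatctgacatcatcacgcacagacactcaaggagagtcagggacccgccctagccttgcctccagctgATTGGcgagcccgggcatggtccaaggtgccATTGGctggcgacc

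Hmgcs1 holds 1 sterol element at position -137 from the gene start, and 3 CCAAT boxes. Nsdhl holds 2 CCAAT boxes, Msmo1 3 and Idi1 2, with 0 sterol elements of this form. Over the full windows of 300 bases, which reach past the start, 22 measured members had 29 promoter entries. Of these entries 1 held TCACNCCAC, against 1.24% of 32851 windows of all genes, and 19 held CCAAT, against 37.4%. All 15 enzymes with an entry had CCAAT in at least 1 window, while Fdps, Fdft1 and Sqle had no entry. The share of all genes with CCAAT in at least 1 window was not computed. The letters ACGTG, the core of hypoxia response elements and also part of the E-box CACGTG, were in 7 of 29 entries, against 19.6% of all windows. They were in the windows of Abca1, Dhcr7, Hsd17b7, Insig1, Sc5d and Scap. In each of these genes a match lay inside a full CACGTG, and only Insig1 also held matches outside one. A match is a description of letters and not a shown binding site, and no match says only that the letters are not in this window.

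Of the 5 measured regulators, 4 were below 0 (55.6% of all genes). The median of the 5 was -0.36, which was -0.23 without normoxia array 2 and -0.56 without normoxia array 1. None passed. Insig2, which retains the Scap complex in the endoplasmic reticulum, was the gene that stood higher. It was at 461, 358 and 423 in hypoxia and 319, 315 and 282 in normoxia, and every hypoxia array was above every normoxia array (log2 fold change 0.43, SE 0.15, interval 0.11 to 0.76, adjusted p = 0.312). Its other 2 kept probe sets gave 0.54, with overlap, and 0.48, without. Its log2 fold change was between 0.35 and 0.55 under the 21 alternatives, none of which called it (adjusted p 0.0702 to 0.723). Insig1, its relative and itself a target of SREBP-2, was at 245, 325 and 232 against 433, 418 and 216. Normoxia 3 lay below all hypoxia arrays while the other normoxia arrays lay above them (log2 fold change -0.36, interval -0.95 to 0.23). With 1 array left out its value ran from -0.69 (without normoxia array 3) to -0.19 (without normoxia array 1). The difference between Insig1 and Insig2 was not tested.

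Srebf2 itself was at 164, 210 and 113 in hypoxia and 156, 277 and 268 in normoxia. The groups overlapped through normoxia 1 (log2 fold change -0.53, interval -1.15 to 0.10, adjusted p = 0.538), and its other probe set gave -0.79. Scap was at 161, 268 and 116 against 156, 236 and 268, with broad overlap (log2 fold change -0.33, interval -1.01 to 0.36). Its value was -0.0441 without hypoxia array 3 and -0.65 without hypoxia array 2. Nr1h3, the liver X receptor alpha, was dim at 41.8, 34.3 and 39.2 against 36.8, 66 and 55 (log2 fold change -0.42, interval -1.01 to 0.18). None of these transcripts reports how much SREBP-2 protein was processed, which arrays do not measure.

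Log2 fold changes of the 5 transport, storage and efflux genes ran from -0.16 to 0.28. None passed, and in all 5 the groups overlapped. Abca1, the pump that loads cholesterol onto lipid-poor apolipoprotein, was at 1215, 1117 and 1185 in hypoxia and 1401, 972 and 1212 in normoxia. The hypoxia arrays lay inside the normoxia range, and the interval of its log2 fold change was -0.33 to 0.31 around -0.01. Abcg1, which passes cholesterol to mature lipoprotein, was at 47.2, 42.6 and 59.1 against 57.9, 55.7 and 45.9 (log2 fold change -0.11, interval -0.61 to 0.40). Stard4, a carrier of cholesterol between membranes and a known SREBP-2 target, was at 384, 305 and 332 against 366, 357 and 340. Its 3 kept probe sets gave log2 fold changes from -0.06 to 0.03. Of the pair that exports cholesterol from lysosomes, Npc1 was at 52.3, 58.3 and 41.8 against 50.8, 62.8 and 55.6 (log2 fold change -0.16). Npc2 was at 1153, 972 and 1173 against 1005, 786 and 920, overlapping only through hypoxia 2 and normoxia 1 (log2 fold change 0.28, interval -0.02 to 0.59, adjusted p = 0.489).

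**Figure D4:**
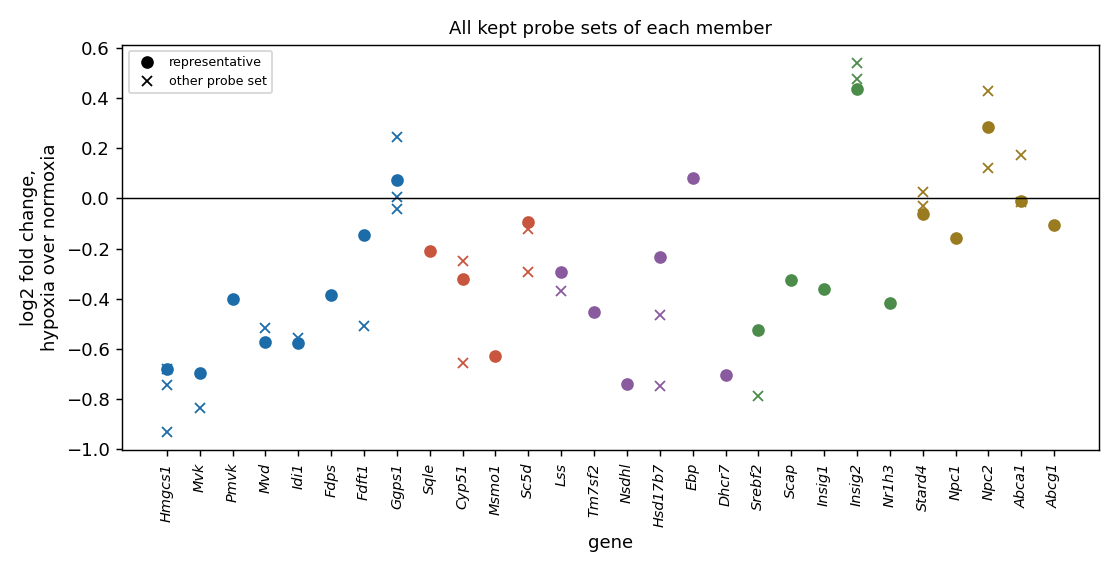
Log2 fold change of hypoxia over normoxia (y axis) of every kept probe set of each measured gene (x axis); circles are the representative probe sets, crosses the others, and colours the roles (blue early, red oxygen-using and purple other late steps, green regulators, ochre transport and efflux). Probe sets of Hmgcs1, Mvk, Idi1 and Mvd lie together below 0 and those of Insig2 together above, while those of Fdft1, Hsd17b7 and Cyp51 are spread out.

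Other probe sets of the same genes mostly pointed the same way. Of 26 further kept probe sets of 15 genes, 23 had the sign of the representative; the 3 that passed were those of Hmgcs1. The counts that follow include repeat readings of 1 transcript and are not independent. No share over all probe sets was computed. Over all genes 55.6% were below 0, and every hypoxia array was lower in 9.91%. Among early steps 15 of 18 probe sets were below 0 and in 12 all hypoxia arrays were lower. Hmgcs1 and Ggps1 each gave 4 of these 18. Among oxygen-using steps the counts were 8 and 3 of 8, among other late steps 8 and 3 of 9. For regulators 5 of 8 and for transport and efflux 6 of 11 were below 0, and in 0 of either were all hypoxia arrays lower.

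Averaged over the enzymes, every hypoxia array lay below every normoxia array. The mean deviation of the 18 enzymes from each gene's own mean was -0.19, -0.23 and -0.16 log2 in hypoxia and 0.28, 0.12 and 0.18 in normoxia. Oxygen-using steps alone were at -0.11, -0.22 and -0.13 against 0.23, 0.13 and 0.11, and early steps at -0.23, -0.25 and -0.15 against 0.32, 0.14 and 0.18. Regulators did not separate, at -0.09, 0.08 and -0.35 against -0.09, 0.35 and 0.10. Transport and efflux genes were at 0.06, -0.08 and 0.01 against 0.09, -0.04 and -0.04, with no order of the groups. These means describe genes chosen with results known and carry no test.

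**Figure D5:**
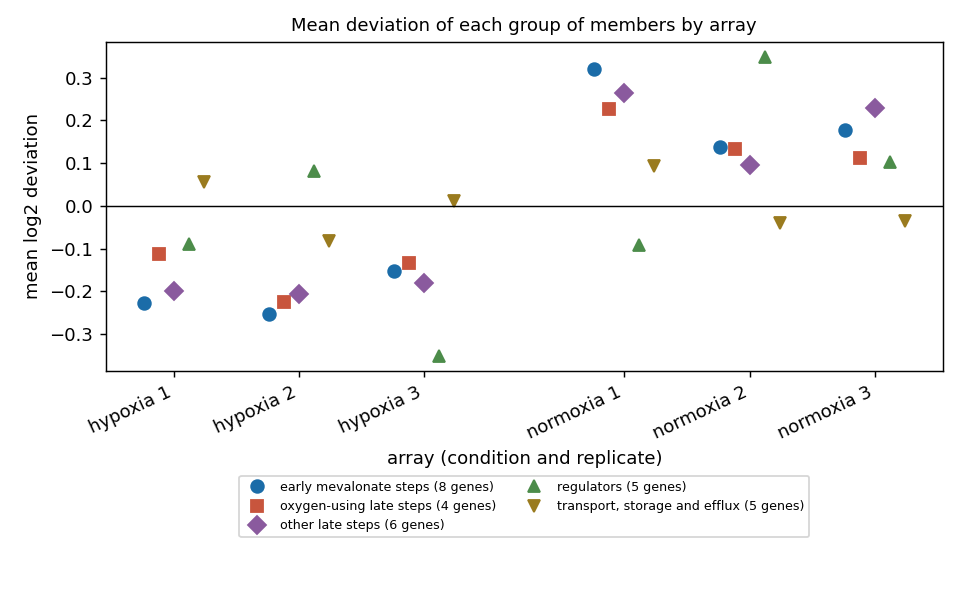
Mean over the genes of each role (y axis) of the log2 deviation from each gene's mean, by array (x axis); each symbol is a group of genes. The 3 groups of enzymes lie below 0 on all hypoxia arrays and above 0 on all normoxia arrays, whereas regulators and transport genes cross 0 within both conditions.

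Part of the spread inside the groups was shared between arrays. Over 22518 probe sets, deviations from the group mean correlated at r = 0.32 between hypoxia 3 and normoxia 1, arrays of opposite condition. This was the highest of the correlations between a hypoxia and a normoxia array. The lowest was -0.30 (hypoxia 2 with normoxia 1). Deviations within a group cancel out, so values of both signs had to occur. Mvd, Lss, Dhcr7, Srebf2, Scap and Npc1 were lowest of their group on both hypoxia 3 and normoxia 1, 6 of 28 members against 23.2% of all genes. Another 10 were highest on both, against 22.1% of all genes, among them Hmgcs1, Idi1, Fdps, Fdft1, Hsd17b7 and Ebp. With both arrays left out, an alternative chosen after seeing the data, 4 members were called lower (Hmgcs1, Idi1, Msmo1 and Nsdhl). In that fit 270 of 11329 genes were called, 88 lower and 182 higher. The source of this shared spread was not tested.

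Neighbouring genes of the pathway were read from 6 lists of 58 genes, of which 48 were measured. None passed. At an unadjusted p under 0.05, 7 of 48 were lower (6.30% of all genes) and 2 higher (6.13%). Of the fatty acid targets of SREBP, 7 of 8 were below 0 (55.6% of all genes) and their median was -0.31. In 4 of the 8 every hypoxia array was lower (9.91% of all genes). Fasn, fatty acid synthase, was at 293, 337 and 300 in hypoxia and 453, 557 and 600 in normoxia, with no overlap (log2 fold change -0.79, SE 0.15, adjusted p = 0.0603). The desaturases Fads1 and Fads2 had log2 fold changes of -0.56 and -0.62 (adjusted p = 0.207 and 0.299), while Scd2, the brightest of the list, was at -0.04. Fasn, Fads1 and Fads2 were named after their values were seen.

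In the sterol feedback machinery 5 of 8 genes were above 0, and the median was 0.07. Over all genes tested, 55.6% were below 0. The log2 fold change of Pgrmc1, the brightest, was 0.42 (adjusted p = 0.229), and that of Rnf145, a ubiquitin ligase of sterol-triggered degradation named after its values were seen, was 0.56 (adjusted p = 0.133). Non-sterol isoprenoid branches had 6 of 9 below 0 and a median of -0.05, with Fnta, a subunit of protein prenyltransferases, at -0.05. Its partner subunit Fntb was dim and variable, at 21.7, 51.4 and 13.2 in hypoxia and 30, 109 and 79.3 in normoxia, and the groups overlapped (log2 fold change -1.38, interval -2.63 to -0.13, adjusted p = 0.410). Intracellular sterol transfer had 9 of 11 below 0 and a median of -0.22, with Scp2 at -0.02. Lipoprotein and efflux partners had 6 of 9 below 0 and a median of -0.01, with the HDL receptor Scarb1 at -0.01. Abca7, a lipid transporter related to Abca1, was at 95.3, 146 and 55.4 against 116, 247 and 222, overlapping through normoxia 1 (log2 fold change -1.02, interval -1.85 to -0.19, adjusted p = 0.358). Fntb and Abca7 were named after their values were seen. Of the oxysterol and bile acid enzymes only 3 were measured, with a median of -0.45, the brightest of them Cyp39a1 at -0.45 (adjusted p = 0.331).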

How the data were processed

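The authors deposited linear signal intensity values per probe set from 6 one-colour Affymetrix mouse arrays, made with MAS5 per the submitters' processing notes; for version, settings and scaling target, none was given in the sources used here. Trimmed means (2% at each end) were 99.5 on all arrays, so no further scaling was applied. None of 15 array pairs was identical. MAS5 signals are noisy near background, and 3 arrays per group limit precision.

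In the analysis, 10 signals of 0 were set to 0.1 and values were log2 transformed. Probe sets with a mean log2 signal above the median (22518 of 45037) were fitted with limma 3.58.1 in R 4.3.3 (lmFit, eBayes with trend, two-sided, no covariate), adjusting p by Benjamini-Hochberg over all of them. Fold changes are hypoxia over normoxia. An exact permutation test of 3 against 3 cannot go below p = 0.1. The fit was tested on simulated data with independent noise and changes larger than any member's. It missed part of these changes and called some probe sets that had none. That test does not cover shifts of the members' size or spread shared between arrays. Genes came from a platform annotation (34945 probe sets with 1 symbol, 932 with several, 9160 with none). Every member is named; of neighbouring lists, genes that passed and the brightest that did not, besides others that the text says were named after their values were seen. Members and lists were chosen with earlier results of these data known. Alternatives covered scaling, low signals, variance model, probe set choice, the replicate number and each array left out. Promoters came from RefSeq, GRCm38.p6.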

Additional observations from a re-analysis of the deposited data

How the results depend on the processing

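Of 28 members, 20 kept the sign of their log2 fold change under all 21 alternatives run (20 for Tm7sf2, Nr1h3, Npc1 and Abcg1, which the filter at the 75th percentile did not keep). Members called lower numbered 1 as reported, 3 after quantile normalization and after cyclic loess (Hmgcs1, Msmo1, Nsdhl), 2 with the filter at the 75th percentile and for the mean of a gene's probe sets, 5 with array weights (also Idi1 and Mvk), 0 after median centring, 0 with eBayes without trend, and 0 to 1 with 1 array left out. None was called higher under any alternative. Of all genes, 10 were called lower as reported, 15 after quantile normalization and 12 after cyclic loess. That count was 11 of 6757 with the filter at the 75th percentile and 13 for the mean of a gene's probe sets. It was 80 with array weights, 4 after median centring and 2 without trend. With 1 array left out it was 1 (without normoxia replicate 3) to 27 (without normoxia replicate 1). All genes called numbered 85 as reported, 9 without trend, 277 with array weights and 24 (without hypoxia replicate 1) to 128 (without normoxia replicate 1) with 1 array left out. Median centring moved the median of all genes by 0.11 and the medians of early steps to -0.38, oxygen-using steps to -0.16 and transport and efflux to 0.0469. The last was 0.00277 with array weights and -0.0937 to 0.0112 with 1 array left out. The cause of these shifts was not tested.

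Signs turned in 8 members. After centring Sc5d was 0.0153, Stard4 0.0469, Abca1 0.0985 and Abcg1 0.00513. With array weights Stard4 was 0.00277 and Abca1 0.00790; Abca1 was 0.0484 for the mean of its probe sets. With 1 array left out the ranges were -0.32 to 0.0809 for Fdft1, -0.0458 to 0.19 for Ggps1, -0.51 to 0.00144 for Hsd17b7, -0.0384 to 0.22 for Ebp, -0.15 to 0.0112 for Stard4 and -0.15 to 0.11 for Abca1.

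The labels do not say whether same-numbered samples were handled together. Correlations of their deviations were -0.08, 0.21 and -0.14, which with 3 arrays per group cannot settle it. With the replicate number as a block 0 members were called (Hmgcs1 at an adjusted p of 0.0908), and 63 of all genes. The 2 added alternatives were chosen after seeing the data. With hypoxia replicate 3 and normoxia replicate 1 both left out, 4 members (all lower) and 270 genes (88 lower) were called, and Abca1 was 0.10. With the first within-group component as covariate, 9 members (all lower) and 652 genes (295 lower) were called. This component was computed from the same arrays, so these p-values are too small.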
